A study of Bos indicus x Bos taurus with 20 samples.

Results

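The gene counts of bovine 2-cell embryos that had received METTL7A mRNA as zygotes were set against those of embryos that had received vehicle. They are 4 of the 20 libraries of the study: METTL7A 2-cell replicates 1 and 2, and Control 2-cell replicates 1 and 2, taken by the stage and treatment in their sample titles. Both groups were Bos indicus x Bos taurus embryos of wild-type genotype. METTL7A embryos are those injected at the zygote stage with METTL7A mRNA transcribed in vitro, and Control embryos those injected at the same stage with vehicle alone. No group received another mRNA, so METTL7A and the injection of mRNA as such cannot be told apart in this comparison. The labels give neither the number of embryos in a library nor whether the replicates came from separate collections, and p-values therefore measure only the spread between these libraries, which may be technical. PolyA RNA was amplified straight from embryos, without RNA extraction, by SMART-Seq v4 and cut into fragments by Tn5. Such libraries carry no strand, so reads of antisense partners are not separated.

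METTL7A, also named TMT1A, is a methyltransferase anchored in the endoplasmic reticulum membrane and found on lipid droplets. It transfers methyl groups from S-adenosylmethionine to thiol compounds. The bovine embryo at this stage still runs mostly on RNA and protein stored in the oocyte. These maternal messages are used, shortened at their poly(A) tails and degraded while the embryonic genome is mostly silent, and the main wave of embryonic transcription in cattle comes some cleavages later. A difference in polyA RNA at this stage can therefore lie in stored, degraded or newly made message, and in bulk samples fewer cells and less RNA per cell cannot be told apart.

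Total gene counts ran from 16026817 to 20737404 per library, and 17914 to 18474 genes had at least 1 count. Of 30675 genes in the table, 21000 had a count in at least 1 of the 4 libraries and 14025 passed the filter on low counts and were tested. The METTL7A libraries were less alike than the Control libraries. After scaling to CPM (counts over the TMM-scaled library size, times 1e+06), the median absolute log2 difference between the replicates was 0.29 in METTL7A embryos and 0.091 in Control embryos. The chi-square per degree of freedom between replicates, which is near 1 for repeat draws from 1 library, was 41.6 in METTL7A embryos and 2.41 in Control embryos. METTL7A replicate 2 was about as close to the Control libraries (Pearson r of log2(CPM + 1) across genes 0.982 and 0.9805) as to METTL7A replicate 1 (0.9831), whereas METTL7A replicate 1 stood farther from both Control libraries (0.9673 and 0.966). The Control libraries had r = 0.9971 with each other. These are correlations across genes, which are not independent replicates. Defining oocyte transcripts were abundant in all 4 libraries: BMP15, a growth factor secreted by the oocyte, had 5897 and 6269 CPM in METTL7A embryos, against 5799 and 5633 CPM in Control embryos.

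**Figure D1:**
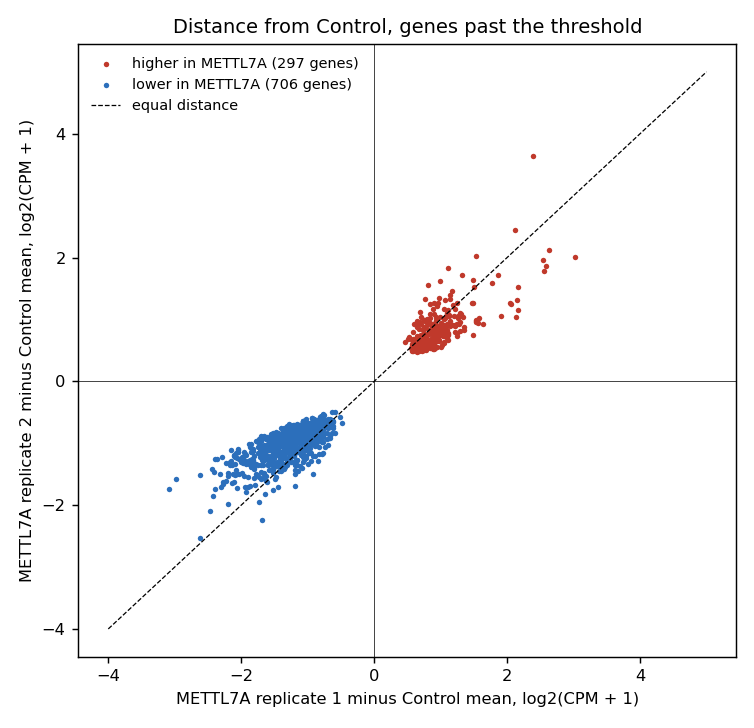
For each gene past the threshold, METTL7A and LOC781439 apart, the distance of METTL7A replicate 2 from the Control mean (vertical axis, log2(CPM + 1)) is plotted against that of METTL7A replicate 1 (horizontal axis), with 297 higher genes in red, 706 lower genes in blue and a dashed line at equal distance. Replicate 1 lay farther from Control than replicate 2 in 79.9% of the called genes and in 63.9% of all genes tested.

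The injected message was present in both METTL7A libraries. METTL7A had 838683 and 967700 counts in METTL7A embryos, against 462 and 328 counts in Control embryos. That is 5.23% (95% exact interval 5.22 to 5.24) and 4.68% (4.67 to 4.69) of all gene counts in METTL7A embryos, against 0.00223% (0.00203 to 0.00244) and 0.00167% (0.0015 to 0.00186) in Control embryos, where the intervals cover counting error only. The scaled level was 55011 and 49325 CPM in METTL7A embryos and 21.3 and 15.8 CPM in Control embryos, which gave log2 fold change 11.46 (SE 0.241, edgeR quasi-likelihood test, Benjamini-Hochberg adjusted p = 4.78e-05). The annotated but unnamed locus LOC781439 moved with it: it had 45221 and 47815 counts in METTL7A embryos, against 15 and 21 counts in Control embryos (log2 fold change 11.62, SE 0.256, adjusted p = 4.78e-05). The number of METTL7A counts per LOC781439 count was 18.5 and 20.2 in METTL7A embryos, against 30.8 and 15.6 in Control embryos. Whether its counts are reads of the injected message was not tested, since no sequence of either was used here. METTL7B, the nearest relative of METTL7A, had 0 counts in all 4 libraries.

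Apart from the injected gene, changes were found in both directions, and their number depended on which libraries set the spread. With the spread taken from the 4 libraries of this stage, 299 of 14025 genes were higher (2.13% of those tested) and 706 were lower (5.03%) in METTL7A embryos at an adjusted p below 0.05, and 1003 of these 1005 remain when METTL7A and LOC781439 are set aside. The unadjusted p was below 0.05 for 4286 genes. This fit gives both groups 1 shared spread, although the METTL7A replicates differed more than the Control replicates (median absolute log2 difference 0.29, against 0.091). Its SE and adjusted p therefore rest in part on the close Control pair. With the Control libraries summed into 1, because they were so alike, 58 of 14616 genes were higher (0.397%) and 372 were lower (2.55%). That fit, like those without a Control library, takes the spread from the METTL7A pair and assumes that the lone Control library varies as they do, and it shares the METTL7A libraries, so it is no independent check. Of the 1005 genes, 335 passed with the same sign in both fits, 43 of them higher and 292 lower, which is 33.3% of the first set and 77.9% of the 430 genes of the second. In a fit that shared 1 spread with the 8-cell groups of the same table, 2 of 16149 genes were higher (0.0124%) and 0 were lower (0%). Those 2 were METTL7A and LOC781439, the smallest adjusted p of another gene was 0.269, and 1196 genes had an unadjusted p below 0.05. The dispersion was 0.0271 in the 2-cell fit, 0.0576 with the Control libraries summed and 0.145 with the 8-cell groups, whose Control replicates differed most (chi-square per degree of freedom 299.2). Leaving out 1 library moved the counts too: 60 genes were higher and 388 lower without Control replicate 1, 46 higher and 310 lower without Control replicate 2, 3323 higher and 3466 lower without METTL7A replicate 1, and 3776 higher and 4175 lower without METTL7A replicate 2. The last 2 fits took the spread from the close Control pair alone. An exact permutation test of a single gene cannot go below 0.33 with 2 libraries against 2.

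**Figure D2:**
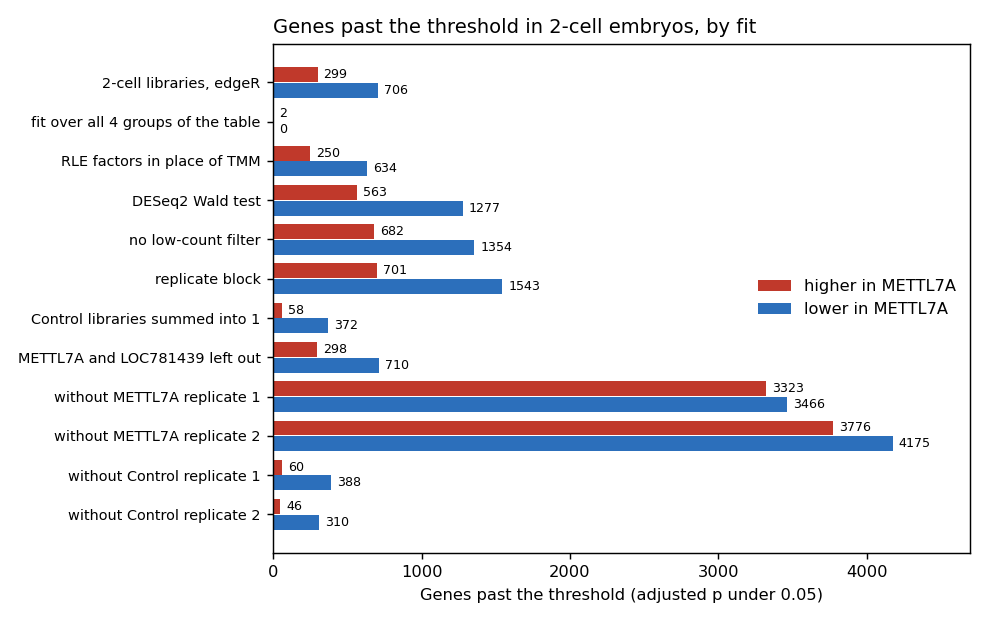
The bars give the number of genes higher and lower in METTL7A 2-cell embryos at an adjusted p below 0.05 under each fit, on an axis that starts at 0. The 299 higher and 706 lower genes of the 2-cell fit compare with 58 and 372 when the Control libraries are summed, and with 2 and 0 when the 8-cell groups share the spread.

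The genes that passed in the 2-cell fit differ in size and level between directions. METTL7A and LOC781439 apart, 106 of the 297 higher genes exceeded 2-fold and 38 exceeded 4-fold, with a median log2 fold change of 0.86. Of the 706 lower genes, 509 exceeded 2-fold and 50 exceeded 4-fold, with a median of -1.22. The median over all genes tested was 0.03. The higher genes had the higher CPM, a value that also grows with gene length, with a median of 55.3 CPM over the 4 libraries (quartiles 12.3 and 165.2), against 23.5 CPM (9.90 and 54.8) for the lower genes and 15.3 CPM for all genes tested. Split by level into 5 bins of 2805 genes, the share called higher was 0.998%, 1.25%, 1.6%, 2.5% and 4.31% from the lowest bin to the highest, and the share called lower was 1.25%, 4.35%, 7.99%, 8.31% and 3.28%. These shares carry the power of the test with them, since deeper genes have less counting error. In all of the called genes both METTL7A libraries lay on the same side of both Control libraries, as they did in 8789 of the 14025 genes tested, of which 4455 had METTL7A higher and 4334 had it lower. METTL7A replicate 1 was farther from Control than replicate 2 in 214 of the 297 higher genes and in 587 of the 706 lower genes.

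**Figure D3:**
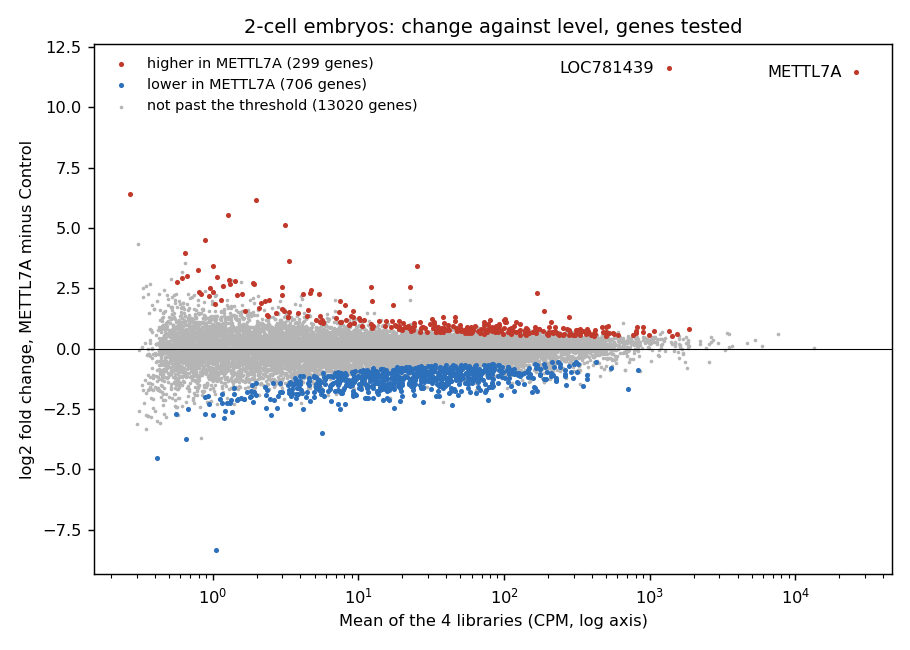
Each gene tested is placed by its mean level over the 4 libraries (horizontal axis, CPM on a log scale) and its log2 fold change, METTL7A minus Control (vertical axis), with 299 higher genes in red, 706 lower genes in blue and the other 13020 in grey. METTL7A and LOC781439 stand alone at 11.46 and 11.62, and the median level of the called genes is 55.3 CPM for the other higher genes and 23.5 CPM for the lower genes.

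The 12 genes named for the largest rise and the 12 for the largest fall were taken from those of at least 5 CPM in the higher group that also passed with the Control libraries summed. BTG2, an antiproliferative protein that binds the CCR4-NOT deadenylase, had 8.46 and 3.67 CPM in METTL7A embryos, against 0.138 and 0.193 CPM in Control embryos, where it rested on 3 and 4 counts. Its log2 fold change was 5.13 (SE 0.625, adjusted p = 0.0324). The groups did not overlap, as in all called genes, although the METTL7A libraries differed more than 2-fold. STC1, a secreted glycoprotein hormone of calcium and phosphate handling, had 27.0 and 65.7 CPM in METTL7A embryos, against 4.43 and 4.25 CPM in Control embryos (change of 3.42 on the log2 scale, SE 0.447, adjusted p = 0.0325). Here METTL7A replicate 2 was the higher of the METTL7A pair. ALDH1A1, which oxidises retinaldehyde to retinoic acid, had 247 and 312 CPM in METTL7A embryos, against 56.5 and 56.2 CPM in Control embryos (mean 279 ± 45.8, against 56.3 ± 0.182 CPM, SD, n = 2 each). The log2 fold change was 2.31 (SE 0.161, adjusted p = 0.0275), with both METTL7A libraries more than 4-fold above both Control libraries. GSKIP, a binding partner of the kinase GSK3B, had 25.4 and 16.6 CPM in METTL7A embryos and 3.87 and 3.19 CPM in Control embryos (change of 2.56 on the log2 scale). MAP1A, a microtubule-associated protein, had 45.2 and 31.7 CPM in METTL7A embryos and 6.41 and 6.57 CPM in Control embryos (change of 2.56 on the log2 scale).

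The other higher genes of this set differed from Control by less. CFLAR, an inhibitor of caspase-8 activation, had 36.9 and 16.8 CPM in METTL7A embryos and 8.07 and 7.20 CPM in Control embryos (change of 1.81 on the log2 scale, SE 0.381, adjusted p = 0.0482). ELOVL5, an elongase of polyunsaturated fatty acids, had 364 and 199.7 CPM in METTL7A embryos and 96.3 and 95.5 CPM in Control embryos (with log2 change, SE and adjusted p of 1.55, 0.28 and 0.0388, the order used for all such sets of 3 values). In both genes METTL7A replicate 1 was the higher of its pair. SEC16B, which organises the sites where cargo leaves the endoplasmic reticulum, had 484 and 312 CPM in METTL7A embryos and 166 and 159 CPM in Control embryos (change of 1.29 on the log2 scale). DCUN1D4, which promotes neddylation of cullins, had 139.7 and 145 CPM in METTL7A embryos and 61.3 and 60.7 CPM in Control embryos (change of 1.22 on the log2 scale), and here all 4 libraries lay close to their group means. The log2 fold change was 1.97 for TRIM48, a member of the tripartite-motif family, 1.56 for MSRB2, a mitochondrial methionine sulfoxide reductase, and 1.30 for FOPNL, a centrosomal protein.

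The higher genes of highest CPM changed by less than 2-fold and did not pass with the Control libraries summed. PAPOLG, a nuclear poly(A) polymerase, had 1749 and 1978 CPM in METTL7A embryos, against 1248 and 1210.3 CPM in Control embryos (change of 0.60 on the log2 scale, SE 0.115, adjusted p = 0.042). ARF4, a small GTPase of Golgi traffic, had 1739 and 1642 CPM in METTL7A embryos and 1189 and 1151 CPM in Control embryos (0.53, 0.107 and 0.0443). The log2 fold change was 0.74 for RRAS2, a Ras-related GTPase, 0.71 for NUSAP1, a microtubule-binding protein of the mitotic spindle, and 0.80 for ZC2HC1A, which had 2698 and 1983 CPM in METTL7A embryos and 1342 and 1355 CPM in Control embryos. The groups did not overlap in these 5 genes, as in all called genes.

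The 12 named falls, chosen as above among genes with a symbol, ran from -2.52 in SREBF1 to -2.14 in DVL2 on the log2 scale. Some called genes outside that choice fell further, LOC112445101 among them. SREBF1, a transcription factor that drives lipid synthesis genes, had 1.12 and 1.33 CPM in METTL7A embryos, against 6.78 and 7.34 CPM in Control embryos (change of -2.52 on the log2 scale, SE 0.262, adjusted p = 0.0324). TAF1C, a subunit of the selectivity factor of RNA polymerase I, had 1.97 and 2.45 CPM in METTL7A embryos and 11.7 and 13.6 CPM in Control embryos (-2.51, 0.238 and 0.0324). In both genes each METTL7A library lay about as far below Control as the other. TRIM3, a ubiquitin ligase, had 4.53 and 6.22 CPM in METTL7A embryos and 27.7 and 32.0 CPM in Control embryos (change of -2.46 on the log2 scale). FGD1, an exchange factor for the GTPase CDC42, had 7.67 and 11.9 CPM in METTL7A embryos and 44.8 and 46.6 CPM in Control embryos (change of -2.22 on the log2 scale). SLC6A8, the creatine transporter, had 5.25 and 8.77 CPM in METTL7A embryos and 32.9 and 30.7 CPM in Control embryos (change of -2.17 on the log2 scale). In these 3 genes both METTL7A libraries lay more than 3-fold below both Control libraries.

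In 3 others the METTL7A libraries differed more from each other. DVL1 and DVL2 encode Dishevelled proteins, which relay Wnt signals from Frizzled receptors. DVL2 had 15.3 and 41.9 CPM in METTL7A embryos, against 123 and 132 CPM in Control embryos (change of -2.14 on the log2 scale, SE 0.436, adjusted p = 0.0457), and DVL1 had 1.38 and 4.08 CPM in METTL7A embryos, against 13.5 and 13.6 CPM in Control embryos (-2.28, 0.438 and 0.042). GIT1, a scaffold that activates the GTPase activity of ARF proteins, had 7.74 and 21.3 CPM in METTL7A embryos and 70.2 and 75.8 CPM in Control embryos (change of -2.32 on the log2 scale). In each of these 3 genes METTL7A replicate 2 was more than 2-fold above replicate 1 and still below both Control libraries. The log2 fold change was -2.31 for DDR1, a collagen receptor kinase, -2.29 for GRAMD1A, a cholesterol carrier between plasma membrane and endoplasmic reticulum, -2.17 for DET1, a ubiquitin ligase component, and -2.17 for PCDH1, a protocadherin.

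**Figure D4:**
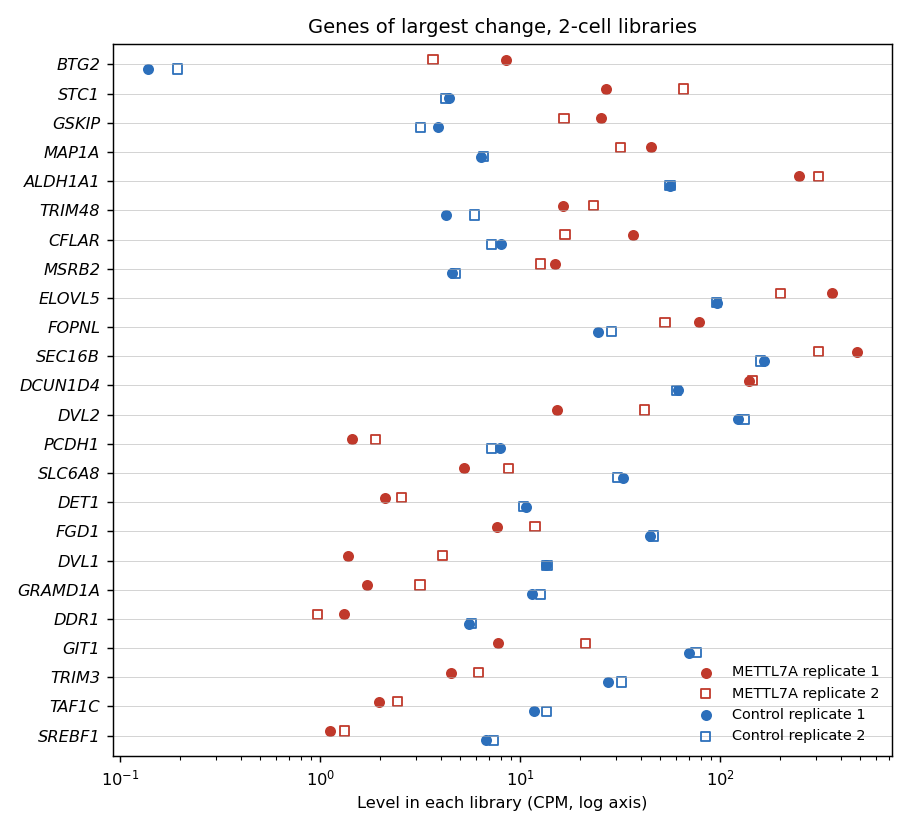
The level in each library (horizontal axis, CPM on a log scale) is shown for the 12 named genes of largest rise, above, and the 12 of largest fall, below, with METTL7A libraries in red, Control libraries in blue, replicate 1 as discs and replicate 2 as squares. ALDH1A1 stands at 247 and 312 CPM in METTL7A embryos, against 56.5 and 56.2 CPM in Control embryos. The groups overlap in none of the 24 genes shown, nor in any other called gene. They did not overlap in 8789 of the 14025 genes tested.

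The lower genes of highest CPM were PARP12, MCM4, ASTL, PIM3 and MTMR3. PARP12, an ADP-ribosyltransferase known as an interferon-stimulated gene, had 253 and 427 CPM in METTL7A embryos, against 1075 and 1086 CPM in Control embryos (change of -1.67 on the log2 scale, SE 0.246, adjusted p = 0.0331). MCM4, a subunit of the replicative helicase, had 339 and 453 CPM in METTL7A embryos and 698 and 689 CPM in Control embryos (-0.81, 0.163 and 0.045). The log2 fold change was -1.25 for PIM3, a serine/threonine kinase, and -1.09 for MTMR3, a phosphoinositide phosphatase. PARP12, PIM3 and MTMR3 also passed with the Control libraries summed, whereas MCM4 and ASTL did not.

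A few called genes were close to empty in 1 group. They are named here because of their values, which were seen first. They passed the filter on low counts through the group where they were higher. LOC112445101 had 0 and 0 counts in METTL7A embryos, against 53 and 36 counts in Control embryos, which puts it at least 24.4-fold lower when METTL7A embryos are given 3 counts over the group. LRP1B, a lipoprotein receptor, had 8 and 11 counts in METTL7A embryos, against 0 and 0 counts in Control embryos, at least 7.70-fold higher against the same floor, and did not pass with the Control libraries summed. DBNDD1 had 79 and 51 counts in METTL7A embryos, against 1 and 1 counts in Control embryos, a ratio of 79.1 with a 95% counting interval of 21.4 to 659.7.

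Gene lists for functions of this stage were then read against the background of 2.13% of genes higher and 5.03% lower. They were chosen with earlier results of these data known, and each is described by its counts in the edgeR test and its median log2 fold change, METTL7A over Control, beside the 0.03 of all genes tested. The 2.13% and 5.03% are shares of the edgeR test. DESeq2 called more genes, 563 higher and 1277 lower over all genes, so its list counts are not to be read against those shares. In the fit shared with the 8-cell groups METTL7A was the only list member past the threshold.

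Few genes of the lists closest to the injected enzyme passed. Of 16 tested genes of thiol and small-molecule methylation and of the S-adenosylmethionine cycle, METTL7A alone passed in the edgeR test and the median was -0.02, while DESeq2 called 3 higher and 1 lower. TPMT, which methylates thiopurines, had 34.0 and 36.6 CPM in METTL7A embryos and 29.5 and 25.7 CPM in Control embryos (a log2 change of 0.35, adjusted p = 0.193). MAT2B, the regulatory subunit of methionine adenosyltransferase, had 1040.2 and 818 CPM in METTL7A embryos and 613 and 615 CPM in Control embryos (0.60, adjusted p = 0.0602). AHCY, which removes S-adenosylhomocysteine, had 57.0 and 51.0 CPM in METTL7A embryos and 53.6 and 54.5 CPM in Control embryos (adjusted p = 0.993), and its groups overlapped.

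Of 54 tested antioxidant genes, 2 rose and 1 fell, with a median of 0.00. Summing the Control libraries left MSRB2 alone. PRDX6, a peroxiredoxin, had 75.8 and 64.2 CPM in METTL7A embryos, against 40.3 and 39.7 CPM in Control embryos (change of 0.81 on the log2 scale, SE 0.152, adjusted p = 0.0414). MSRB2 had 14.9 and 12.6 CPM in METTL7A embryos and 4.56 and 4.73 CPM in Control embryos. NFE2L1, a stress-responsive transcription factor, had 37.1 and 40.2 CPM in METTL7A embryos and 66.4 and 59.0 CPM in Control embryos (-0.70, 0.15 and 0.049). The classical enzymes did not pass. SOD1 had 246 and 151 CPM in METTL7A embryos and 203 and 205 CPM in Control embryos (change of -0.04 on the log2 scale), and CAT, catalase, had 109 and 102 CPM in METTL7A embryos and 107 and 98.5 CPM in Control embryos (0.03). Both overlapped between groups. The median of the list was -0.28 without METTL7A replicate 1 and 0.22 without METTL7A replicate 2.

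Of 51 tested maternal oocyte transcripts, 3 fell and the other 48 did not pass, with a median of -0.13. ASTL, the cortical granule protease that cuts the zona pellucida after fertilisation, had 335 and 359.9 CPM in METTL7A embryos, against 499.9 and 513 CPM in Control embryos (change of -0.54 on the log2 scale, SE 0.115, adjusted p = 0.0475). YBX2, which packages stored mRNA in germ cells, had 27.1 and 23.4 CPM in METTL7A embryos and 44.7 and 49.4 CPM in Control embryos (-0.90, 0.162 and 0.0388). DAZAP1, an RNA-binding protein, had 3.21 and 3.11 CPM in METTL7A embryos and 6.55 and 7.53 CPM in Control embryos (-1.15, 0.228 and 0.0431). Summing the Control libraries gave 2 lower members, other than these 3. By role, the median was 0.05 over 13 genes of oocyte growth factors and the zona pellucida, -0.19 over 20 genes of mRNA storage, 0.20 over 9 meiotic genes and -0.46 over 9 genes of the subcortical maternal complex, a protein assembly under the cortex of the oocyte and early embryo. The last had 8 members below 0 but none past the threshold in this edgeR test, and its summed level was 3965 CPM in METTL7A replicate 1 and 5947 CPM in METTL7A replicate 2, against 6380.2 and 6272 CPM in Control embryos. METTL7A replicate 1 was the lowest of the 4 libraries there. KHDC3L, a member of the complex, had 104 and 831 CPM in METTL7A embryos and 671 and 732 CPM in Control embryos. NLRP5, its core member, had 211 and 359 CPM in METTL7A embryos and 614 and 634 CPM in Control embryos (a log2 change of -1.13, adjusted p = 0.0501). The zona gene ZP2 had 1712 and 1585 CPM in METTL7A embryos and 1612 and 1566 CPM in Control embryos, and GDF9, an oocyte growth factor, had 2252 and 1542 CPM in METTL7A embryos and 1611 and 1632 CPM in Control embryos.

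Of 32 tested genes of maternal mRNA clearance, the machinery that deadenylates, decaps and destabilises messages, 3 rose and 3 fell, with a median of -0.02. Catalytic deadenylase subunits were among those that rose: CNOT7 had 1237 and 1128 CPM in METTL7A embryos, against 809 and 784 CPM in Control embryos (change of 0.57 on the log2 scale, SE 0.112, adjusted p = 0.0429), and CNOT8 had 246 and 228 CPM in METTL7A embryos, against 158 and 157 CPM in Control embryos (0.59, 0.122 and 0.0461). BTG2, given above, was the third. EDC4, a decapping scaffold, had 15.2 and 26.7 CPM in METTL7A embryos and 63.9 and 67.0 CPM in Control embryos (-1.64, 0.273 and 0.0365). The others that fell were ZFP36L2, which binds AU-rich elements (log2 fold change -1.21), and CNOT3, a non-catalytic CCR4-NOT subunit (-0.89). Summing the Control libraries left 1 gene of the list higher and 1 lower.

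Of 20 tested genes of embryonic genome activation, of 39 listed, 2 fell, KLF4 and SOX2, with a median of 0.18. Both are transcription factors of pluripotent cells. KLF4 had 1.64 and 2.04 CPM in METTL7A embryos, against 5.58 and 5.79 CPM in Control embryos (change of -1.62 on the log2 scale, SE 0.259, adjusted p = 0.0355), and SOX2 had 4.0 and 4.23 CPM in METTL7A embryos, against 8.71 and 9.13 CPM in Control embryos (-1.11, 0.207 and 0.0403). Neither passed with the Control libraries summed, a fit that called 1 member higher, ZSCAN5B, and 0 lower, while DESeq2 called 2 higher and 2 lower. ZSCAN5B, of the same gene family as ZSCAN4, had 0.590 and 4.08 CPM in METTL7A embryos and 0.461 and 0.193 CPM in Control embryos (adjusted p = 0.117 in the 2-cell fit). ZSCAN4, a marker of early genome activation in mouse and human, did not pass and had 86.1 and 94.0 CPM in METTL7A embryos and 104 and 100.1 CPM in Control embryos.

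Of 76 tested chromatin modifiers, 13 fell (17.1%, beside the 5.03% of all genes tested) and the other 63 did not pass, with a median of -0.30. Over all genes the share called lower depended on level, from 1.25% in the lowest of the 5 bins to 8.31% in the fourth. The 5.03% is not matched to the level of these genes. Of the 76, 55 had a negative fold change and 21 a positive one, and 7 were lower with the Control libraries summed. The median was -0.28 without Control replicate 1, -0.32 without Control replicate 2, -0.19 without METTL7A replicate 1 and -0.45 without METTL7A replicate 2. Over all genes tested it was 0.034, 0.034, -0.016 and -0.0019 in the same fits. KAT2A, a histone acetyltransferase, had 30.2 and 48.3 CPM in METTL7A embryos, against 147 and 154 CPM in Control embryos (change of -1.94 on the log2 scale, SE 0.237, adjusted p = 0.0324). HDAC7, of the histone deacetylase family, had 45.0 and 43.5 CPM in METTL7A embryos and 114 and 126 CPM in Control embryos (-1.44, 0.139 and 0.0324). An acetyltransferase and a member of the deacetylase family thus both fell. EHMT2 and SETDB1 methylate lysine 9 of histone H3: EHMT2 had 18.5 and 22.3 CPM in METTL7A embryos and 57.7 and 55.9 CPM in Control embryos (-1.48, 0.164 and 0.0324), and SETDB1 had 34.3 and 38.2 CPM in METTL7A embryos and 96.4 and 95.1 CPM in Control embryos (-1.40, 0.141 and 0.0324). The METTL7A replicates of these 2 genes were close. By role, 2 of 11 genes of DNA methylation fell, the oxidising enzyme TET3 (log2 fold change -1.16) and the methyltransferase DNMT3B (-0.80). Of 37 histone methylation genes 6 fell, and of 28 acetylation genes 5 fell, KAT2A and HDAC7 among them.

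Of 22 tested genes of m6A, the methyl mark on adenosines within mRNA, CBLL1 rose and RBM15B fell, with a median of -0.06. Both proteins belong to the writer complex. CBLL1 had 669 and 688 CPM in METTL7A embryos, against 445 and 455 CPM in Control embryos (change of 0.59 on the log2 scale, SE 0.109, adjusted p = 0.0396). RBM15B had 19.7 and 35.6 CPM in METTL7A embryos, against 80.3 and 90.8 CPM in Control embryos (-1.62, 0.284 and 0.0378). In the fit with the Control libraries summed 2 m6A genes were lower.

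Nuclear genes of oxidative phosphorylation and of the cytosolic ribosome showed no call. By edgeR 0 of 73 oxidative phosphorylation genes passed in either direction, 4 had an unadjusted p below 0.05 and DESeq2 called 1 higher. Of 75 ribosomal protein genes 0 passed by edgeR, 3 had an unadjusted p below 0.05 and DESeq2 called 0. Over all 14025 genes tested by edgeR, the unadjusted p was below 0.05 for 4286. The direction of both lists depended on the METTL7A library. The oxidative phosphorylation median was 0.08 with all libraries, -0.24 without METTL7A replicate 1 and 0.27 without METTL7A replicate 2, and the ribosomal median was -0.09, -0.39 and 0.12 in the same 3 fits. ATP5F1A, the alpha subunit of ATP synthase, had 482 and 412 CPM in METTL7A embryos and 438 and 423 CPM in Control embryos (a log2 change of 0.05, adjusted p = 0.812). RPL7A, of the large ribosomal subunit, had 159 and 109 CPM in METTL7A embryos and 126 and 131 CPM in Control embryos (0.06, adjusted p = 0.862). Both overlapped between groups. Ribosomal protein genes have many near-identical copies, and how reads that map to several places were counted is not given in the sources used here.

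**Figure D5:**
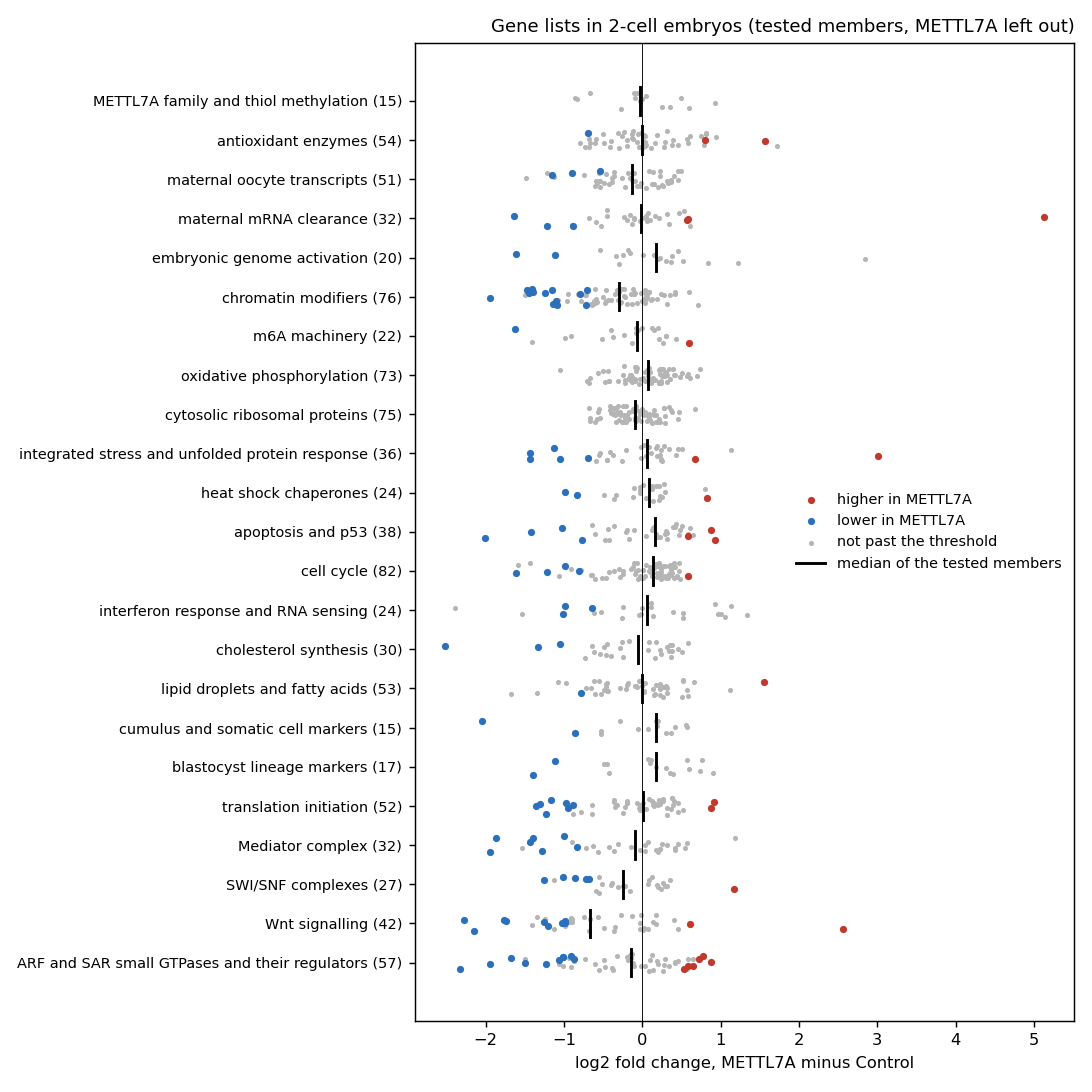
The log2 fold changes of the tested members of each gene list are shown as points (horizontal axis, METTL7A minus Control), with members called higher in red, those called lower in blue, the others in grey, the list median as a bar and METTL7A itself left out. The 76 chromatin modifiers have a median of -0.30 with 13 members called lower, and no oxidative phosphorylation or ribosomal gene is coloured.

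Stress and death pathways held calls in both directions, as did all genes tested, of which 2.13% were higher and 5.03% lower. Of 36 tested genes of the integrated stress and unfolded protein responses, 2 rose and 5 fell, with a median of 0.06. Sensors of endoplasmic reticulum stress were among those that fell: ATF6B had 5.84 and 6.01 CPM in METTL7A embryos, against 15.1 and 16.9 CPM in Control embryos (change of -1.43 on the log2 scale, SE 0.189, adjusted p = 0.0325), and ERN1, which encodes IRE1 alpha, had 33.2 and 38 CPM in METTL7A embryos, against 74.4 and 73.5 CPM in Control embryos (-1.05, 0.148 and 0.0325). SYVN1, a ubiquitin ligase of endoplasmic reticulum degradation, had a log2 fold change of -1.13, SESN2, a stress-induced inhibitor of mTORC1, of -1.43, and DDIT4, another such inhibitor, of -0.69. SERP1, which protects new membrane proteins, rose to 209 and 197 CPM in METTL7A embryos, against 124 and 131 CPM in Control embryos (0.67, 0.124 and 0.0404). DNAJB9, a chaperone of the endoplasmic reticulum, rose at a low level, with 1.31 and 1.07 CPM in METTL7A embryos and 0.0922 and 0.193 CPM in Control embryos. Summing the Control libraries left 2 of the list lower.

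Of 24 tested heat shock chaperones and regulators, HSF1, the heat shock transcription factor (-0.83 on the log2 scale), and DNAJB1 (-0.99), a co-chaperone of HSP70, fell, and DNAJB4 (0.82), of the same family, rose, with a median of 0.09. With the Control libraries summed no member of this list passed, against the 3 in the 2-cell edgeR fit, and DESeq2 called 1 higher and 2 lower. Of 38 tested genes of apoptosis and p53, 3 rose and 4 fell, with a median of 0.16. Summing the Control libraries left CASP2 and BAK1 past the threshold and no other member. CASP2, an initiator caspase, had 27.7 and 37.8 CPM in METTL7A embryos, against 90.4 and 85.2 CPM in Control embryos (change of -1.42 on the log2 scale, SE 0.189, adjusted p = 0.0325). BAK1, a pore-forming protein of the mitochondrial path to apoptosis, was low and had 0.590 and 0.816 CPM in METTL7A embryos and 2.26 and 3.53 CPM in Control embryos. BIRC2, an inhibitor of apoptosis, had 77.9 and 75.4 CPM in METTL7A embryos and 42.5 and 40.7 CPM in Control embryos (0.88, 0.136 and 0.0338). TP53INP1, a p53 target, had 578 and 781 CPM in METTL7A embryos and 356 and 361 CPM in Control embryos (0.92, 0.167 and 0.0388). In the 2-cell fit the anti-apoptotic BCL2L1 fell (-0.77), and so did GADD45B (-1.02), a growth arrest gene.

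Of 82 tested cell cycle genes, 1 rose and 4 fell, with a median of 0.14. ESPL1, the separase that cleaves cohesin at anaphase, had 28.3 and 52.9 CPM in METTL7A embryos, against 124 and 124 CPM in Control embryos (change of -1.61 on the log2 scale, SE 0.29, adjusted p = 0.0388). POLD1, the catalytic subunit of DNA polymerase delta, had 18.5 and 23.5 CPM in METTL7A embryos and 49.2 and 48.6 CPM in Control embryos (-1.22, 0.176 and 0.0325). CDC25B, a phosphatase that activates CDK1, had a log2 fold change of -0.99, and MCM4 is given above. ORC5, of the origin recognition complex, was the one that rose, with 633 and 571 CPM in METTL7A embryos and 408 and 394 CPM in Control embryos. MCM4, POLD1 and ORC5 all act in DNA replication and were called in different directions. By edgeR 0 rose and 4 fell with the Control libraries summed, ESPL1 and POLD1 among them. DESeq2 called 2 of 81 higher and 9 lower, beside its 563 higher and 1277 lower over all genes.

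Injected RNA can be read by RNA sensors in many cell types, and interferon genes were listed for that reason. Of 50 listed genes of the interferon response and RNA sensing 24 could be tested, 3 fell and the others did not pass. The median was 0.05, and 10 unadjusted p-values were below 0.05, beside 4286 over the 14025 genes tested. Of 26 interferon-induced effectors only 6 reached the count filter. DHX58, a regulator of RIG-I-like receptors, had 234 and 242 CPM in METTL7A embryos, against 371 and 369 CPM in Control embryos (change of -0.64 on the log2 scale, SE 0.114, adjusted p = 0.0388). ADAR, which edits double-stranded RNA, had 61.3 and 90.0 CPM in METTL7A embryos and 151 and 153 CPM in Control embryos (-1.01, 0.203 and 0.045). IRF7, a transcription factor of the interferon response, had a log2 fold change of -0.98. These 3 did not pass with the Control libraries summed.

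METTL7A sits on lipid droplets and at the membrane where sterols are made. Of 30 tested genes of cholesterol synthesis and its control, 3 fell, and they belong to the control of the pathway: SREBF1, given above, SREBF2, its relative that drives sterol synthesis, with 6.56 and 6.98 CPM in METTL7A embryos, against 17.6 and 16.6 CPM in Control embryos (change of -1.33 on the log2 scale, SE 0.182, adjusted p = 0.0325), and SCAP, which escorts both to the Golgi, with 23.0 and 35.4 CPM in METTL7A embryos, against 60.2 and 60.7 CPM in Control embryos (-1.05, 0.227 and 0.0496). The other 27 did not pass and the median was -0.05. Summing the Control libraries left 1 of the list lower. Of 53 tested genes of lipid droplets and fatty acids, ELOVL5 rose and PPARD, a lipid-sensing nuclear receptor, fell (-0.79 on the log2 scale), with a median of 0.00.

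Markers of other cells were measured to see what else the libraries might hold. Cumulus and granulosa cells surround the oocyte and can stay attached to the zona. Of 18 such markers in the table, the steroidogenic enzyme gene CYP11A1 and the receptor gene LHCGR had 0 counts in all 4 libraries, 8 reached 1 CPM in every library, and their summed level was 529.9 and 600.8 CPM in METTL7A embryos, against 534.5 and 522.8 CPM in Control embryos. Some of these genes are also present in oocytes. The summed level of 14 matrix and stromal markers was 115.0 and 134.6 CPM in METTL7A embryos, against 187.6 and 189.3 CPM in Control embryos, with TAGLN at 0 in all 4. Without FBN1 the sum was 30.9 and 51.2 CPM in METTL7A embryos, against 36.8 and 37.1 CPM in Control embryos, and the groups overlapped. Among 15 testable cumulus and somatic markers NPR2, a natriuretic peptide receptor, fell (3.87 and 4.74 CPM in METTL7A embryos, against 20.1 and 15.5 CPM in Control embryos), and so did FBN1, a microfibril protein (84.1 and 83.4 CPM in METTL7A embryos, against 151 and 152 CPM in Control embryos), which did not pass with the Control libraries summed. The median of these 15 was 0.17, with 9 of them above 0. STAR, a cholesterol carrier of steroidogenic cells, had 214 and 248 CPM in METTL7A embryos and 239 and 241 CPM in Control embryos and did not pass. The part of such cells in other results was not tested. Of 17 tested blastocyst lineage genes GATA2, a trophectoderm transcription factor (-1.39 on the log2 scale), and SOX2 fell, and neither passed with the Control libraries summed. The median of the list was 0.17, with 12 of 17 members above 0. The summed level of 14 trophectoderm markers was 141.5 and 145.1 CPM in METTL7A embryos, against 109.4 and 116.0 CPM in Control embryos. For 16 epiblast and hypoblast markers it was 257.7 and 357.3 CPM in METTL7A embryos, against 354.9 and 371.7 CPM in Control embryos. The groups overlapped in this second sum.

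A further 5 lists were written after the values were seen, to describe groups that recur among the called genes, and they support nothing on their own. Over all genes tested 2.13% were higher and 5.03% lower. Of 42 tested Wnt signalling genes 9 were lower and 2 higher, with a median of -0.67, and summing the Control libraries gave 6 lower and 1 higher. Beside DVL1 and DVL2, AXIN2, a scaffold and target of the pathway, had 3.08 and 5.25 CPM in METTL7A embryos, against 14.3 and 14.2 CPM in Control embryos (change of -1.76 on the log2 scale). The 2 higher ones were GSKIP and the ubiquitin ligase RNF146. Of 32 tested subunits of Mediator, the bridge between transcription factors and RNA polymerase II, 7 were lower (3 with the Control libraries summed), led by MED15 with 12.8 and 16.4 CPM in METTL7A embryos and 54.2 and 58.6 CPM in Control embryos (-1.95). Of 27 tested subunits of SWI/SNF nucleosome remodellers 5 were lower (1 with the Control libraries summed), while the ATPase SMARCA2 was higher, with 148 and 127 CPM in METTL7A embryos and 64.2 and 57.6 CPM in Control embryos (1.17).

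The remaining lists cover small GTPases with their regulators and translation initiation. Of 23 tested ARF, ARL and SAR GTPases, which switch membrane traffic, 6 were higher and the other 17 did not pass, with a median of 0.42. ARF4 and SAR1A were among them, and SAR1A, which starts vesicle budding from the endoplasmic reticulum, had 196 and 169 CPM in METTL7A embryos, against 99.8 and 99.6 CPM in Control embryos (change of 0.87 on the log2 scale). Of 34 tested proteins that activate their GTP hydrolysis or exchange their nucleotide 10 were lower, GIT1 among them, with a median of -0.44. With the Control libraries summed no GTPase passed in edgeR while 5 of the regulators were lower. In translation initiation, 2 of 52 tested genes were higher and 7 lower, and by edgeR 0 and 2 with the Control libraries summed, where EIF4E did not pass. The cap-binding protein EIF4E had 1129 and 975 CPM in METTL7A embryos, against 584 and 558 CPM in Control embryos (0.88), whereas its scaffold partner EIF4G1 had 12.3 and 22.1 CPM in METTL7A embryos, against 44.8 and 43.8 CPM in Control embryos (-1.36), and PABPC1, which binds poly(A) tails, had 22 and 23.2 CPM in METTL7A embryos, against 56.1 and 49.6 CPM in Control embryos (-1.22).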

How the data were processed

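PolyA RNA libraries of whole 2-cell embryos were compared. Per the labels' protocols, embryos went into SMART-Seq v4 cDNA synthesis without RNA extraction, followed by Tn5 tagmentation. Per the submitters' processing notes, Trim Galore 0.6.10, FastQC, STAR 2.7.11b, Subread 2.0.6 and DESeq2 1.44.0 were used. Which genome build and gene annotation they were run with is not given in the sources used here. The authors deposited whole-number read counts per gene, not normalized, with gene symbols or LOC names. Columns were matched to samples by their names, which left 0 columns without a sample. An entry without a gene name, with 0.184% to 0.243% of each library's counts, was left out.

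Counts were fitted with edgeR 4.0.16 under R 4.3.3, beside limma 3.58.1, on the 4 libraries of this stage. The steps were TMM scaling, a filterByExpr filter on low counts, 1 coefficient per group and the robust quasi-likelihood test. The filter asked for a level worth about 10 counts in at least 2 libraries and for 15 counts in total. A gene could therefore pass it through 1 group alone. P-values were adjusted by the Benjamini-Hochberg method across the 14025 genes tested, with a threshold of 0.05, and tests are 2-sided. Log2 fold changes are METTL7A minus Control, their SE is the absolute log2 fold change over the square root of F, and CPM use TMM-scaled library sizes. CPM are not divided by gene length, so an order of genes by CPM is one of read counts and not of transcript number. The steps were tested on simulated data drawn with the same spread in both groups. That cannot show how they behave where the groups differ in spread, as the METTL7A and Control pairs did.

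The members, the 18 gene lists, the fit restricted to this stage and its alternatives were chosen with earlier results of these data known. A fit over all 4 groups of the table, as used in earlier work on these data, is given beside it. The alternatives were that fit, RLE factors, the Wald test of DESeq2 1.42.0, no filter, a replicate block, the Control libraries summed into 1, METTL7A and LOC781439 left out, and each library left out. Named genes were METTL7A and LOC781439; the 12 of largest change in each direction among called genes with a symbol, a mean of at least 5 CPM in the higher group and a call with the Control libraries summed; the 5 of highest mean CPM called in each direction; and in each list up to 4 called members of smallest p, or the 2 of highest CPM where none was called. Other list members were named for their role or after their values were seen. Intervals for shares are exact Clopper-Pearson 95% intervals and, like floors of 3 counts over a group, cover counting error only. Total counts of 16026817 to 20737404 per library set the precision of counting, which matters most for genes of few counts.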

Additional observations from a re-analysis of the deposited data

How the results depend on the processing

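The count of genes past the threshold moved with most settings, always with more genes lower than higher except in the fit over all 4 groups of the table, which gave 2 higher and 0 lower. DESeq2 called 563 higher and 1277 lower, the fit with no low-count filter 682 and 1354, the fit with the Control libraries summed into 1 58 and 372, and RLE factors 250 and 634. Leaving out 1 library gave 46 to 3776 higher and 310 to 4175 lower, and the largest counts came where a METTL7A library was left out and only the close Control pair set the spread. The deviations of same-numbered libraries from their group means had a correlation of -0.0328 over 14025 genes. With 2 libraries per group this cannot show whether the replicate numbers mark pairs. A fit with the replicate number as a block called 701 higher and 1543 lower. Of the 299 higher and 706 lower genes, DESeq2 shared 289 and 696, the block fit 299 and 706, and the fit with the Control libraries summed 43 and 292. Of 78 named results for single genes, 72 lost the threshold in the fit over all 4 groups and 6 with RLE factors. In the fit over all 4 groups only METTL7A and LOC781439 kept it. The oxidative phosphorylation and ribosomal genes among the 78 had no call to lose. No such count is given for the fits that hold 1 library in a group. The 12 genes of largest change in each direction were named for passing with the Control libraries summed. Without METTL7A replicate 1 the log2 fold change reversed for ATP5F1A (-0.067, against 0.12 without METTL7A replicate 2) and RPL7A (-0.24, against 0.27), neither of which passed in the 2-cell fit, and the cause was not tested. With 2 libraries per group, genes of few counts are limited by depth.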
